A study of Drosophila melanogaster with 6 samples.

Results

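Pvr is the receptor tyrosine kinase of Drosophila that belongs to the PDGF and VEGF receptor family, and Pvf1, Pvf2 and Pvf3 encode its secreted ligands. These 4 genes were chosen by symbol from the 17806 named genes of a count table, and all 4 were present. RNA was sequenced from GFP-positive intestinal progenitor cells, the stem cells and their undifferentiated daughters, sorted from the guts of adult female Drosophila melanogaster. The libraries carried the genotype labels Patr1 and esgTS, with 3 libraries each, and the labels do not spell out the alleles or transgenes behind either name or what both share. Each library came from a pool of 100 flies kept at 29 °C for 6 days, from which 30000 to 50000 cells were sorted, so a library averages over many animals. Patr-1, the decapping activator of P-bodies after which the first genotype is named, stood at 35.9 ± 3.38 CPM in Patr1 and 220.1 ± 12.2 CPM in esgTS (CPM, reads scaled to a common library size with TMM factors, mean ± SD, n = 3 each). The series asked which RNAs depend on P-bodies, cytoplasmic assemblies of mRNA decay enzymes and the messages they silence.

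Pvf ligands are cystine-knot growth factors related to vertebrate PDGF and VEGF. Binding to Pvr starts tyrosine phosphorylation and, through adaptors, the Ras-MAPK cascade, PI3-kinase and the Rac GTPases that remodel actin. In the fly the pathway is known for guiding migrating border cells, for keeping blood cells alive and for thorax closure, and in the midgut Pvf2 and Pvr are known to promote stem cell division, more so in ageing or damaged guts. In the BDGP6 annotation Pvr, Pvf2 and Pvf3 lie on chromosome arm 2L and Pvf1 on X, and Pvf2 and Pvf3 are neighbours on the same strand. Pvr (FBgn0032006) has 13 annotated transcripts with proteins of 1468 to 1577 residues, Pvf1 (FBgn0030964) has 3 transcripts, Pvf2 (FBgn0031888) has 1 and Pvf3 (FBgn0085407) has 4. The counts are per gene, so isoforms could not be told apart.

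The 4 genes fell into a well expressed pair and a scarce pair in both genotypes. Pvr and Pvf2 had 1684 and 790 reads in the Patr1 libraries together, and 1887 and 490 in the esgTS libraries. Pvf1 and Pvf3 had 33 and 35 reads in Patr1, and 17 and 35 in esgTS. Library totals ran from 2035676 to 2958607 reads, so 3 reads, taken as the floor of detection, were 1.01 to 1.47 CPM. Across genes, log CPM correlated at 0.977 to 0.989 between libraries of 1 genotype, against 0.888 to 0.896 between the genotypes. By this measure each library was more like those of its own genotype than those of the other. Each Patr1 over esgTS change below comes from the quasi-likelihood test of edgeR across 7927 genes, with Benjamini-Hochberg adjusted p-values called at 0.05.

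Pvf2 rose in Patr1, and it was the only one of the 3 tested genes to pass. It stood at 124.7, 110.6 and 97.1 CPM in Patr1 replicates 1, 2 and 3, against 58.7, 55.8 and 58.2 CPM in esgTS replicates 1, 2 and 3. All 3 Patr1 libraries lay above all 3 esgTS libraries, and the lowest Patr1 value was well clear of the highest esgTS value. The means were 110.8 ± 13.8 CPM in Patr1 and 57.6 ± 1.54 CPM in esgTS (SD, n = 3 each), and the coefficient of variation was 12.4% in Patr1 and 2.67% in esgTS. The fitted change was 1.92-fold (log2 0.94 ± 0.10 SE, 95% interval 1.64-fold to 2.25-fold, edgeR adjusted p = 1.38e-05). Calls were common in these libraries: 49.4% of tested genes passed in either direction and 25.5% passed as higher in Patr1, and the CPM ranges of the genotypes did not overlap in 57.3%, with Patr1 above in 29.6% and esgTS above in 27.7%. Among the 2018 genes called higher, whose median log2 change was 0.63, 663 (32.9%) had a larger fitted fold than Pvf2. In bulk libraries of sorted cells, more cells that make Pvf2 and more Pvf2 RNA per cell cannot be told apart.

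Pvr did not pass the test. Its level was 267.0, 220.1 and 226.0 CPM in the Patr1 replicates, against 226.0, 205.6 and 234.8 CPM in the esgTS replicates. The genotypes overlapped, with Patr1 replicate 1 the highest library and esgTS replicate 2 the lowest. The means were 237.7 ± 25.5 CPM in Patr1 and 222.1 ± 14.96 CPM in esgTS (SD, n = 3 each). The log2 change was 0.09 ± 0.09 SE (edgeR adjusted p = 0.424), and its 95% interval ran from 0.928-fold to 1.23-fold.

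Pvf3, the ligand encoded next to Pvf2, was scarce and did not pass either. It had 9, 12 and 14 reads in the Patr1 replicates and 14, 12 and 9 reads in the esgTS replicates, which is 4.54, 4.11 and 6.18 CPM against 4.83, 3.99 and 3.45 CPM. The ranges overlapped, and every library was above the floor of 3 reads. The log2 change was 0.25 ± 0.34 SE (edgeR adjusted p = 0.565). Its 95% interval, 0.72-fold to 1.98-fold, was wide enough to hold the fitted change of its neighbour Pvf2. The difference between the changes of Pvf3 and Pvf2 was not tested.

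Pvf1, the ligand known for guiding border cells, fell below the expression filter and was not tested in the fit. It had 6, 20 and 7 reads in the Patr1 replicates and 7, 3 and 7 reads in the esgTS replicates. In CPM these were 3.03, 6.85 and 3.09 in Patr1 and 2.42, 0.997 and 2.68 in esgTS. Scaled for depth, the Patr1 libraries lay above the esgTS libraries by a narrow margin, while the raw reads overlapped, and esgTS replicate 2 was at the floor. The group totals gave a ratio of 2.31 (exact 95% counting interval 1.25 to 4.42, which covers counting error only). Fitted without the filter, Pvf1 had a log2 change of 1.14 ± 0.50 SE and an edgeR adjusted p of 0.0611. The log2 ratio of the group means, 1.09 with all libraries, was 0.59 without Patr1 replicate 2 and 0.76 without esgTS replicate 2. The authors' deposited table, made with DESeq2, gave log2 changes of 1.11 for Pvf1 (adjusted p = 0.211), 0.92 for Pvf2 (adjusted p = 2.09e-08), 0.25 for Pvf3 (adjusted p = 0.769) and 0.08 for Pvr (adjusted p = 0.656).

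**Figure D1:**
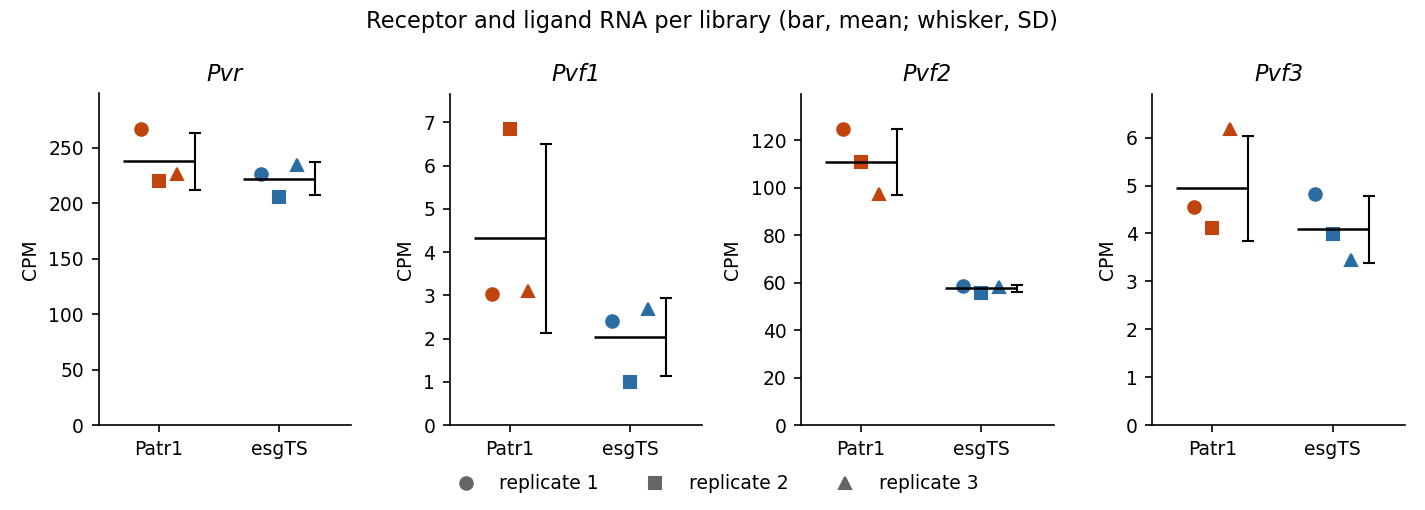
Level of each gene in CPM (y axis, from 0, a scale of its own per panel) in the 3 Patr1 and 3 esgTS libraries; symbols mark replicates, bars the mean and whiskers the SD. The 3 Patr1 points of Pvf2, at 97.1 to 124.7 CPM, sit above the esgTS points at 55.8 to 58.7 CPM, whereas those of Pvr and Pvf3 overlap.

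Per length, the order of ligand and receptor RNA was the opposite in the genotypes, with more Pvf2 than Pvr in Patr1 and less in esgTS. To compare different genes, levels were expressed per length as TPM, the counterpart of CPM that also divides by the deposited gene length. Pvf2 stood at 152.1, 144.6 and 125.7 TPM in the Patr1 replicates, against 76.2, 74.4 and 73.9 TPM in the esgTS replicates. Pvr stood at 102.9, 90.9 and 92.4 TPM in the Patr1 replicates, against 92.8, 86.7 and 94.2 TPM in the esgTS replicates. In TPM, Pvf2 was thus above Pvr in each Patr1 library and below it in each esgTS library. This order depends on the deposited lengths, 2102 bases for Pvf2 and 6653 for Pvr, which no alternative varied. In CPM, with no division by length, mean Pvr was above mean Pvf2 in both genotypes. The means were 237.7 against 110.8 CPM in Patr1 and 222.1 against 57.6 CPM in esgTS. The TPM ratio of Pvf2 to Pvr was 1.48, 1.59 and 1.36 in Patr1, against 0.821, 0.859 and 0.785 in esgTS. On the log2 scale the ratio averaged 0.56 ± 0.11 in Patr1 and -0.28 ± 0.07 in esgTS, a difference of 0.84 (exact two-sided permutation test, n = 3 each, p = 0.1, the smallest that 3 against 3 can give, and 0.3 adjusted over the 3 ligands). This ratio rests on the same counts as the change of Pvf2 and is not independent of it.

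Pvf2 made up nearly all ligand RNA in both genotypes. Its share of the summed Pvf TPM was 97.0%, 94.4% and 95.7% in the Patr1 replicates and 94.4%, 96.4% and 94.8% in the esgTS replicates. The share of Pvf1 was 1.78% to 4.42% in Patr1 and 1.30% to 3.30% in esgTS, and that of Pvf3 was 1.18% to 2.05% in Patr1 and 1.89% to 2.62% in esgTS. The ranges of all 3 shares overlapped between the genotypes. The exact two-sided permutation test gave adjusted p = 0.9, 0.9 and 0.6 for Pvf1, Pvf2 and Pvf3 (n = 3 each), but it cannot go below 0.1 before adjustment and so does not show that the shares were alike. The mean difference in share was 0.32 percentage points for Pvf1, and it took the other sign, at -0.47 points, without Patr1 replicate 2 and -0.29 without esgTS replicate 2. That of Pvf2 was 0.48 points, and -0.18 without Patr1 replicate 1. The summed ligand level was 156.7, 153.1 and 131.4 TPM in Patr1, against 80.7, 77.2 and 78.0 TPM in esgTS, and the ranges did not overlap (1.87-fold, exact two-sided permutation p = 0.1, n = 3 each).

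In order of level per length, the genes ran Pvf2, Pvr, Pvf1 and Pvf3 in Patr1, at means of 140.8, 95.4, 4.19 and 2.12 TPM, and Pvr, Pvf2, Pvf1 and Pvf3 in esgTS, at 91.2, 74.9, 1.98 and 1.79 TPM. Pvf1 and Pvf3 overlapped each other in esgTS, where Pvf1 ranged from 1.00 to 2.57 TPM and Pvf3 from 1.47 to 2.12 TPM. In Patr1 Pvf1 lay above Pvf3, with 2.79 TPM as its lowest library against 2.696 TPM as the highest of Pvf3, a gap smaller than the spread of either. Among the 13665 genes with any read, Pvf2 was at percentile 83.7 by mean TPM in Patr1 and 69.7 in esgTS. Pvr was at percentile 75.0 in Patr1 and 74.1 in esgTS. Pvf1 and Pvf3 were between percentiles 29.8 and 36.7 in both genotypes.

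**Figure D2:**
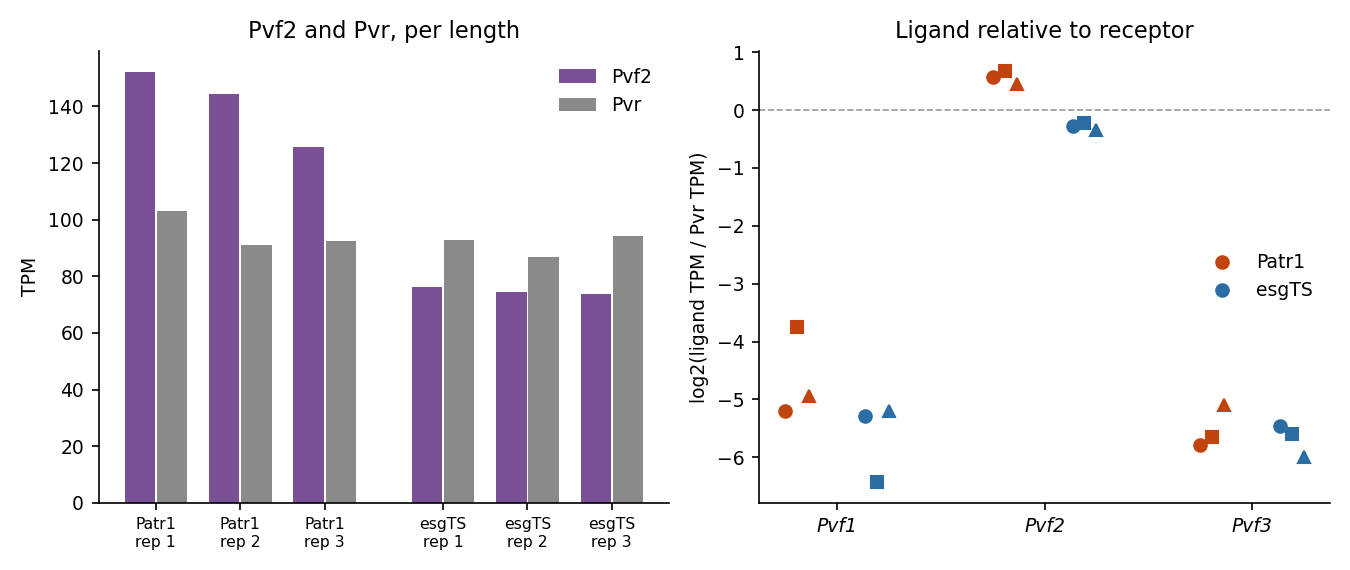
Left, TPM (y axis, from 0) of Pvf2 and Pvr in each library; right, log2 of each ligand's TPM over that of Pvr, with symbols for replicates and a dashed line at equal levels. Pvf2 is above the line in Patr1, where the ratio is 1.36 to 1.59, and under it in esgTS, where it is 0.785 to 0.859, while Pvf1 and Pvf3 stay far under it in both.

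Among the fly's receptor tyrosine kinase genes, Pvr was one of the more abundant. Of 20 such genes, Pvr included, it had rank 4 by TPM in Patr1, after Egfr, InR and Eph, and rank 3 in esgTS, after Egfr and Eph. In Patr1 it differed from both neighbours in that order by more than the spread of the libraries, with Eph, the ephrin receptor gene, at 200.8 to 212.6 TPM and the FGF receptor gene btl at 51.5 to 70.8 TPM. In esgTS Pvr, at 86.7 to 94.2 TPM, overlapped the insulin receptor gene InR, which ranged from 78.1 to 90.1 TPM. It also overlapped dnt, the next in rank, at 76.8 to 88.6 TPM, so the order of Pvr, InR and dnt there was not settled. Of the 19 other receptor genes, 14 were tested, of which 6 were higher, 6 were lower and 2 did not pass, a share called of 85.7% against 49.4% of all genes tested. Pvr was thus one of few tested receptor genes in this family whose change did not pass the threshold, beside Ror and Tie. Ror was scarce, at 4.32 ± 2.26 CPM in Patr1 and 7.89 ± 1.18 CPM in esgTS. Its fitted change was large but imprecise (log2 -0.86 ± 0.38 SE, edgeR adjusted p = 0.0773). That of Tie was log2 -0.10 ± 0.13 SE (edgeR adjusted p = 0.582). Another 5 fell below the expression filter and have no call. Across the alternatives, 6 to 9 of the other receptors were higher and 4 to 7 lower. Its interval excluded changes of the size fitted for InR (log2 1.43 ± 0.09 SE, edgeR adjusted p = 1.33e-07), for the terminal patterning receptor gene tor (log2 4.22 ± 0.32 SE, edgeR adjusted p = 6.11e-07) and for the neurotrophic receptor homologue Ret (log2 -2.45 ± 0.16 SE, edgeR adjusted p = 1.39e-07). The difference between the change of Pvr and those of the other receptors was not tested.

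**Figure D3:**
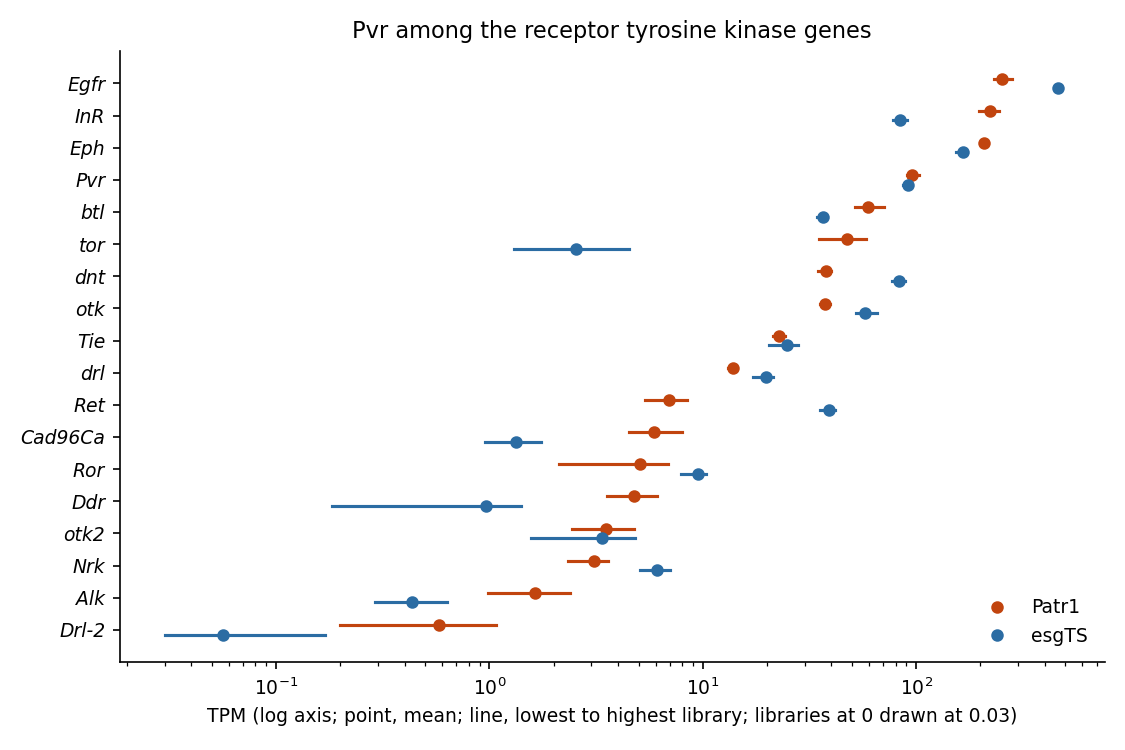
TPM (x axis, log scale) of 18 receptor tyrosine kinase genes, with Patr1 above esgTS for each; points are means and lines run over the 3 libraries, and 2 genes with 0 reads in a genotype are left out. The Pvr points of the genotypes lie side by side, at 95.4 TPM in Patr1 and 91.2 TPM in esgTS, while those of tor, Ret and InR lie apart.

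Genes that act downstream of Pvr moved both ways. Across 6 lists of such genes, 53 of 54 were tested, of which 21 (39.6%) rose, 9 (16.98%) fell and 23 did not pass, against 25.5% higher and 23.9% lower among all genes tested. Their median log2 change was 0.14, against 0.01 over all genes tested. These genes also serve other receptors, several of which changed, so their changes cannot be assigned to Pvr.

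Close to the receptor, adaptors and the Ras-MAPK cascade were split, with 3 of 11 tested genes higher, 4 lower and 4 not past the test (median log2 -0.04). Among all genes tested, 25.5% were higher and 23.9% lower. The adaptor gene Shc was lower, at 67.8 ± 6.83 CPM in Patr1 and 98.8 ± 3.67 CPM in esgTS (log2 -0.53 ± 0.10 SE, n = 3 each, edgeR adjusted p = 6.56e-04). The SHP-2 phosphatase gene csw (log2 -0.40 ± 0.10 SE, edgeR adjusted p = 0.00453) and the MAPK scaffold gene ksr (log2 -0.51 ± 0.12 SE, edgeR adjusted p = 0.00415) were lower as well. The 3 higher genes, drk, Sos and Dsor1, encode the Grb2 homologue, the Ras exchange factor and the MAPK kinase, and were picked for mention after their values were seen. They were close to the threshold: with esgTS replicate 1 left out, or with DESeq2, 0 members of the list passed as higher, and 1 did with Patr1 replicate 3 left out or with either other esgTS replicate left out. PVRAP, named as an adaptor of Pvr and also picked after its values were seen, was too scarce to test, at 0.505, 4.45 and 2.21 CPM in Patr1 and 0.345, 0.997 and 0 CPM in esgTS, which overlap.

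Of 11 genes that restrain or respond to Ras-MAPK signalling, 5 were higher, 2 were lower and 4 did not pass (median log2 0.29), against 25.5% higher and 23.9% lower among all genes tested. RasGAP1, which switches Ras off, stood at 532.2 ± 14.3 CPM in Patr1 and 305.6 ± 12.7 CPM in esgTS (log2 0.80 ± 0.08 SE, n = 3 each, edgeR adjusted p = 4.94e-06). The ETS factor gene pnt, a nuclear effector of the cascade, stood at 509.0 ± 68.2 CPM in Patr1 and 301.5 ± 14.4 CPM in esgTS (edgeR adjusted p = 5.93e-05). The largest change in the list was that of kek1, which encodes an inhibitor of the EGF receptor (log2 3.93 ± 0.19 SE, edgeR adjusted p = 1.40e-08). The number of lower members was 1 without Patr1 replicate 1 or 2 or esgTS replicate 1 or 3, and 0 without esgTS replicate 2.

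In the Rac and actin branch 5 of 10 genes were higher, 1 was lower and 4 did not pass (median log2 0.20). Over all genes tested the shares were 25.5% higher and 23.9% lower. The Rac-family GTPase genes Mtl and Rac2 more than doubled: Mtl stood at 448.2 ± 36.7 CPM in Patr1 and 182.4 ± 18.6 CPM in esgTS (2.45-fold, n = 3 each, edgeR adjusted p = 5.35e-07). Rac2 stood at 427.8 ± 36.4 CPM in Patr1 and 181.4 ± 11.1 CPM in esgTS (2.36-fold, n = 3 each, edgeR adjusted p = 4.00e-07). Ced-12, the ELMO homologue that acts with Mbc to activate Rac, was higher by log2 0.55 ± 0.08 SE (edgeR adjusted p = 1.38e-04). The 1 lower gene, Crk, picked after its value was seen, did not pass without Patr1 replicate 2 or with DESeq2.

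All 3 called genes of the PI3-kinase branch were higher, among 5 tested (median log2 0.43). Over all genes tested, 25.5% were higher and 23.9% lower. The regulatory subunit gene Pi3K21B stood at 554.8 ± 43.2 CPM in Patr1 and 281.6 ± 11.96 CPM in esgTS (1.97-fold, n = 3 each, edgeR adjusted p = 2.04e-06). The kinase gene Akt1 stood at 1145 ± 136 CPM in Patr1 and 610.6 ± 56.4 CPM in esgTS (1.87-fold, n = 3 each, edgeR adjusted p = 2.92e-05), and the catalytic subunit gene Pi3K92E was 1.34-fold higher (edgeR adjusted p = 8.33e-04). In the JNK branch 4 of 8 genes were higher, 1 was lower and 3 did not pass (median log2 0.26), against the same 25.5% and 23.9%. The upstream kinase gene Tak1 stood at 328.8 ± 10.03 CPM in Patr1 and 154.9 ± 12.5 CPM in esgTS (2.12-fold, n = 3 each, edgeR adjusted p = 6.37e-07). The JNK phosphatase gene puc was 1.37-fold higher (edgeR adjusted p = 0.00313), and the JNK kinase gene hep was lower by log2 -0.60 ± 0.12 SE (edgeR adjusted p = 0.00101). There were 2 lower members without Patr1 replicate 1, without esgTS replicate 2 or with no expression filter.

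Of 8 genes of receptor endocytosis and sorting, 1 was higher, 1 was lower and 6 did not pass (median log2 -0.02), against 49.4% called in either direction among all genes tested. Cbl, the ubiquitin ligase known to act on Pvr in border cells, was among those that did not pass and was picked for its role, with its value known. The Rab5 exchange factor gene spri, which acts with Cbl there, stood at 62.1, 66.7 and 59.1 CPM in Patr1, against 25.2, 38.2 and 46.0 CPM in esgTS (log2 0.79 ± 0.17 SE, edgeR adjusted p = 0.00223). The groups did not overlap for spri, though the esgTS libraries were widely spread. The late endosomal gene Rab7 was lower by log2 -0.34 ± 0.09 SE (edgeR adjusted p = 0.00965). The lower members numbered 2 without Patr1 replicate 3 and 0 without esgTS replicate 3.

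**Figure D4:**
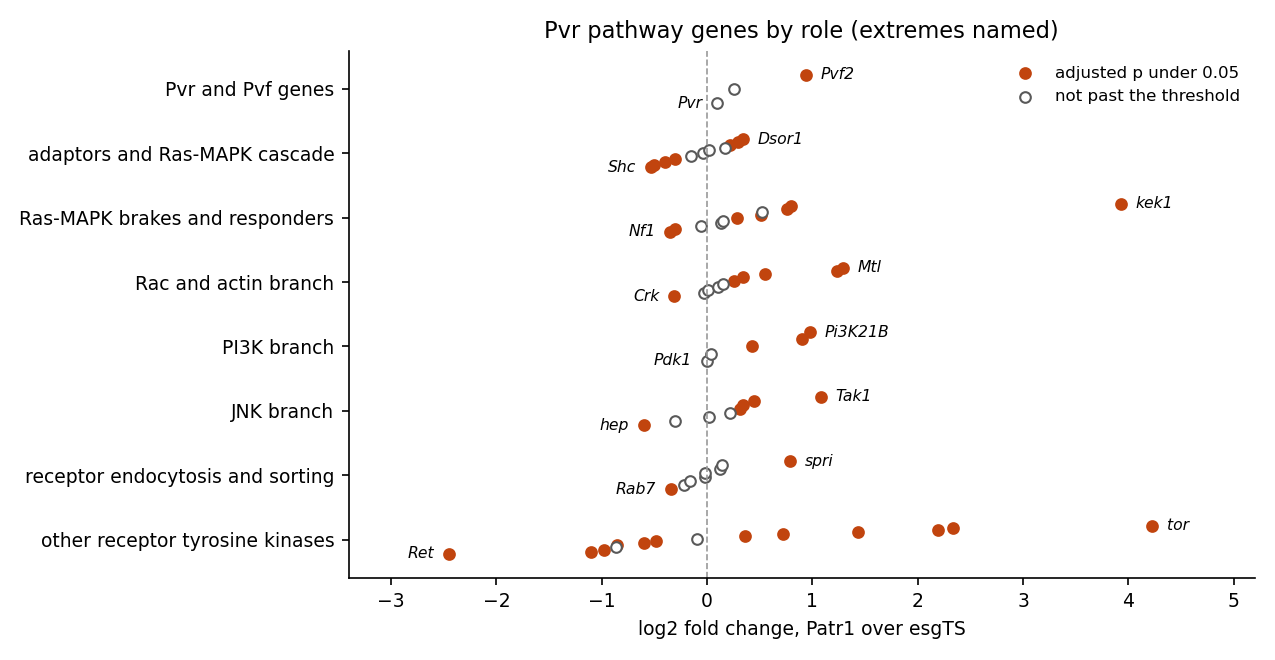
Log2 fold change, Patr1 over esgTS (x axis), of each tested gene in the Pvr family, its downstream lists and the other receptor tyrosine kinases (rows); filled points passed an adjusted p of 0.05 and the extremes of each row are named. Pvf2 lies at 0.94 beside Pvr at 0.09 and Pvf3 at 0.25, and the branches spread to both sides of 0, the PI3K branch mostly to the right.

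Markers of the sorted cells and of their neighbours were measured beside Pvf2. The counts of each list stand against 25.5% higher and 23.9% lower among all genes tested. The progenitor list, all 10 of which were tested, summed to 5430.0 to 6316 CPM in Patr1 and 5894 to 6338 CPM in esgTS, with 5 members higher and 3 lower. The snail-family gene sna was 2.74-fold higher and the zinc finger gene zfh2 lower by log2 -0.92, and esg, the gene that defines these cells, did not pass, so markers of the labelled cell type were present in both genotypes. Enterocyte markers, which the differentiated daughters carry, summed to 1672 to 1694 CPM in Patr1 and 866.7 to 957.7 CPM in esgTS, with 10 of 11 higher, among them bbg, Myo61F and mesh (5.02-fold, 2.55-fold and 2.58-fold), and 1 lower. Visceral muscle markers summed to 119.1 to 147.4 CPM in Patr1 and 42.1 to 46.7 CPM in esgTS, with 2 of 5 tested members higher, the giant muscle protein genes bt and sls (9.22-fold and 3.70-fold). Hemocyte markers summed to 338.6 to 398.6 CPM in Patr1 and 296.5 to 334.2 CPM in esgTS, with 2 of 5 tested members lower and 2 higher. The lower ones were the GATA factor gene srp (log2 -0.71 ± 0.10 SE, edgeR adjusted p = 1.16e-04) and the scavenger receptor gene crq (log2 -0.38 ± 0.08 SE, edgeR adjusted p = 0.00147). The higher ones were the basement membrane collagen genes Col4a1 and vkg (89.8-fold and 29.7-fold). With all genes kept, 5 members passed as higher and 2 as lower. Of the 12 listed genes 7 fell below the expression filter, and 3 of these, NimC1, eater and He, had 0 reads in all libraries. Enteroendocrine markers summed to 391.1, 352.6 and 207.5 CPM in Patr1 replicates 1, 2 and 3, and to 344.5 to 392.5 CPM in esgTS. Of 8 tested members 2 were higher and 2 lower. The lower members numbered 1 without any single library but Patr1 replicate 3, and 0 without that one. Tracheal markers summed to 83.9 to 107.7 CPM in Patr1 and 50.8 to 58.7 CPM in esgTS (1 tested, btl, which was higher). Of these sums btl, also a receptor tyrosine kinase gene above, was 79.7, 79.8 and 103.3 CPM in Patr1. In esgTS it was 55.2, 48.5 and 55.5 CPM. The tracheal regulator gene trh was at 2.65 to 3.53 CPM in Patr1 and 0.766 to 2.07 CPM in esgTS. Malpighian tubule markers summed to 113.0 to 137.6 CPM in Patr1 and 131.8 to 155.1 CPM in esgTS (2 higher and 1 lower of 3 tested). The enterocyte, muscle, hemocyte and tracheal sums were higher in every Patr1 library than in any esgTS library. The tracheal sum was mostly btl, and for muscle and hemocytes this did not hold without 2 genes each. Without bt and sls the muscle sum was 24.6 to 32.2 CPM in Patr1 and 23.1 to 25.6 CPM in esgTS, which overlap. Without Col4a1 and vkg the hemocyte sum was 233.1 to 239.7 CPM in Patr1 and 294.0 to 331.8 CPM in esgTS, lower in every Patr1 library. Only members called higher were left out, after their values were seen, while the lower members srp and crq stayed in. Such a choice can only lower Patr1 relative to esgTS, so nothing is concluded from the lower hemocyte sum. The part of other cell types in the change of Pvf2 was not tested.

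Across the 6 libraries, the profiles most like Pvf2 by Pearson's r of log CPM were those of Grip84, a gamma-tubulin complex gene, CG6610 and mal (r = 0.9998, 0.999 and 0.999). All 3 of these genes were higher in Patr1, by log2 0.41, 0.57 and 0.86. Such likeness was common, since 1134 of 7527 compared genes had r above 0.9 with Pvf2. For Pvr the likest were Mtch, the myosin light chain gene sqh and DCTN3-p24 (r = 0.996, 0.995 and 0.980), with 58 genes above 0.9, and for Pvf3 they were CG4872, vir and CG7600 (r = 0.967, 0.965 and 0.964), with 30 above 0.9. None of these 6 genes passed the test. The values describe 6 libraries of 2 genotypes, which came from one sort scheme and one count table, and carry no p-value.

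**Figure D5:**
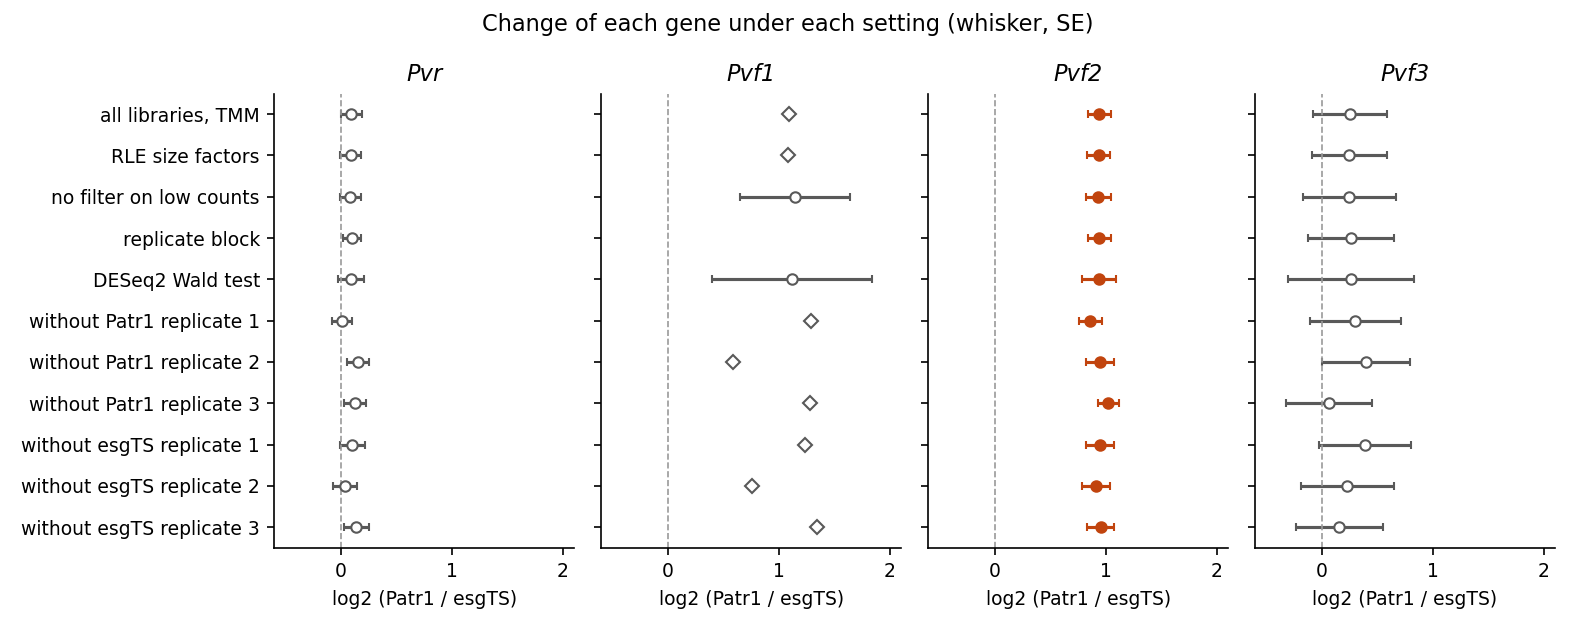
Log2 change, Patr1 over esgTS (x axis), of each gene with all libraries and under each alternative (rows); whiskers are SEs, filled points passed an adjusted p of 0.05, and diamonds without a whisker are ratios of mean CPM with no test. Pvf2 stays between 0.86 and 1.02 in all alternatives, while Pvf1 moves between 0.59 and 1.34 with single libraries.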

How the data were processed

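Per the file headers, the deposited table holds raw counts, each beside its gene's length. Tools named in the submitters' processing notes are featureCounts (Subread 2.0.0), STAR 2.7.3a, cutadapt 2.9, SAMtools 1.10 and DESeq2. The sources used here do not give the genome build, annotation or strand setting, and coordinates are left out; BDGP6 (Ensembl) served for names, neighbours and transcripts, and 99.2% of 17018 matched names had the deposited length. The authors' deposited table holds normalized values (a signal, the count times 1 constant per library), log2 fold changes, Wald statistics (a score) and p-values, per the file headers.

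Libraries were grouped by labelled genotype. Whether replicates came from separate collections is not given, so p-values measure the spread between these libraries; within a genotype, each pair of libraries exceeded counting noise (chi-square over its degrees of freedom, 2.56 to 4.63). The test was edgeR 4.0.16 in R 4.3.3 (TMM, default filter, quasi-likelihood) and was tested on simulated data. A row with no gene name, at most 0.00296% of reads, was left out. TPM used the deposited lengths. SciPy 1.17.1 gave the exact permutation tests and Clopper-Pearson intervals.

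The genes and lists were chosen with earlier results of these data known. Named list genes are the up to 3 with the smallest p per list, and marker lists are mostly given as counts. Named outside this rule were Cbl, esg, crq, Crk, drk, Sos, Dsor1, PVRAP, Egfr, Eph, dnt, Ror, Tie, trh, NimC1, eater and He. Alternatives were other size factors, DESeq2 1.42.0, no filter, a replicate block, RPKM, 0.5 added reads and leaving out each library. No sequence is shown.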

Additional observations from a re-analysis of the deposited data

How the results depend on the processing

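The call of Pvf2 held in all 10 alternatives, at log2 0.86 to 1.02, and Pvr (0.01 to 0.15) and Pvf3 (0.07 to 0.40) stayed positive and past no threshold, with adjusted p of 0.263 to 0.930 and 0.454 to 0.919. Genes called higher numbered 1624 to 2411 and lower 1441 to 2174. Leaving out single libraries gave 0.86 to 1.02 for Pvf2, 0.59 to 1.34 for Pvf1, -0.47 to 0.85 and -0.18 to 1.13 percentage points for the difference in share of Pvf1 and Pvf2, and -0.035 to 0.31 for log2 Pvf3 over Pvr; the 4 that took the other sign were Pvf1 without Patr1 replicate 2 (-0.47) and esgTS replicate 2 (-0.29), Pvf2 without Patr1 replicate 1 (-0.18) and Pvf3 without Patr1 replicate 3 (-0.035), and the cause was not tested. Deviations from the genotype mean correlated at 0.05, 0.20 and -0.04 between libraries that share a replicate number. Between unlike numbers the correlations ran from -0.30 to 0.21. With 3 libraries per genotype these values cannot settle whether the numbers pair the libraries. With the replicate block Pvf2 was at 0.94, Pvr at 0.10 and Pvf3 at 0.26, and no call of these genes changed. In that fit 1999 genes were higher and 1902 lower, and 2 endocytosis genes were lower in place of 1. Of 280 list counts across alternatives, 253 stayed within 1.5 times. Depth limits Pvf1 and Pvf3, with 3 to 20 reads per library.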

Other observations

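Genes that flank the family members in the BDGP6 order were measured as well. On either side of Pvf2 the nearest tested genes were the kinetochore gene Nuf2 (29.8 ± 5.19 CPM in Patr1, against 28.2 ± 5.98 CPM in esgTS libraries, n = 3 each, edgeR adjusted p = 0.775) and Pvf3, so Pvf2 was higher in Patr1 between neighbours that did not pass the test. Ugt307A1 on the other strand shares 11 exon bases with Pvf2, 0.523% of its length, with 5 reads over the Patr1 libraries and 2 over the esgTS libraries. A noncoding RNA gene that overlaps Pvf2 on the same strand and shares no exon base with it, lncRNA:CR44611, had 16 reads in Patr1 and 21 in esgTS. Pvr is flanked by the sorting nexin gene Snx6 (log2 0.19 ± 0.08 SE, edgeR adjusted p = 0.0626) and, as the nearest tested gene on the other side, by CG8086, which had 83 reads in the Patr1 libraries together and 1 read among the esgTS libraries (edgeR adjusted p = 7.30e-06). The neighbours of Pvf1, CG7101 and htk, did not pass (edgeR adjusted p = 0.65 and 0.0636).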
